A study of Mus musculus with 8 samples.

Results

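The genes described here encode 7 proteins of the glomerular basement membrane that are neither collagens nor laminins: agrin (Agrn), perlecan (Hspg2), nidogen 1 (Nid1), nidogen 2 (Nid2), nephronectin (Npnt), TINAGL1 (Tinagl1) and SPARC (Sparc). They were chosen by name, with earlier results of these data known. All 7 were on lines of the deposited count table that held all 8 counts, of 17326 such genes, and all 7 passed the filter on low counts. The study asked what loss of endomucin (Emcn), a sialomucin of the endothelial surface, does to the glomerulus. RNA was measured in glomerular cells sorted from mouse kidney, in 4 groups of 2 libraries: endothelium and podocytes, each from EMCN+/+ (wild type) and EMCN-/- (knockout) mice. No treatment was named. Strain, age, sex, how the knockout allele was made, which markers the sort used and whether animals were pooled are not given in the sources used here. The libraries carry the replicate numbers 2 and 3, and nothing states that they came from separate animals, so p-values measure the spread between these libraries only, which may be technical.

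The glomerular basement membrane is the sheet of matrix between the fenestrated endothelium and the podocytes, and both cell types secrete its components. Laminin and type IV collagen form networks in it. Nidogens bind laminin and collagen IV, perlecan and agrin are heparan sulfate proteoglycans, and agrin is the main one of the mature glomerular basement membrane. Nephronectin is a ligand of integrin alpha8 beta1, TINAGL1 is a secreted matrix protein related to tubulointerstitial nephritis antigen, and SPARC is a collagen-binding matricellular protein.

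Library depth on these lines ran from 10478956 to 17386042 counts. Emcn stood at 1972 and 1828 CPM (counts scaled to library size, with TMM scaling) in wild-type endothelium and at 173 and 179 CPM in knockout endothelium, lower in the direction of the labels but not at 0. In podocytes it stood at 74.1 and 35.9 CPM in wild type and at 5.59 and 4.94 CPM in knockout. The 10 endothelial markers summed to between 8785 and 10553 CPM in endothelium and to between 469 and 703 CPM in podocytes. Of the 10 podocyte markers 6 were on complete lines, and these summed to between 8063 and 17764 CPM in podocytes and to between 1233 and 2250 CPM in endothelium. Tubule markers (7 of 10 genes) summed to between 2296 CPM in replicate 2 of knockout endothelium and 13118 CPM in replicate 3 of wild-type endothelium, which also stood apart on the second principal component. In each of the 4 groups replicate 3 had a higher sum of these tubule markers than replicate 2. It also had a larger share of counts from 15 mitochondrial genes, between 16.9% and 26.2% against between 10.1% and 13.3%. Umod had the highest mean of the tubule markers in each group, and not every marker followed the sum. In knockout podocytes Umod was higher in replicate 3 (5416 against 1225 CPM). Aqp2, Cdh16, Miox (829 against 76.6 CPM), Lrp2 and Cubn were higher in replicate 2 there. Each sort thus held RNA of other cell types, and in bulk samples fewer cells of a type and less RNA per cell cannot be told apart.

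Podocyte libraries held more Npnt, Agrn and Sparc, endothelial libraries held more Hspg2 and Tinagl1, and the nidogens were not past the threshold in the edgeR fit without the replicate number as a block. In wild type, 5 of the 7 genes differed between endothelium and podocytes at an edgeR adjusted p under 0.05, where 8.99% of the 16477 genes tested did. Of the 5, 2 were higher in endothelium (4.26% of all genes) and 3 were higher in podocytes (4.73%). The count fell to 2 members and 769 genes without replicate 2 of wild-type podocytes, and to 3 members without any 1 of the other 3 wild-type libraries. The 2 sorts did not overlap in 6 of the 7 genes, with 3 in each direction, where 46.9% of all genes did not overlap. At an unadjusted p under 0.05 the same 5 genes were counted, where 19.6% of all genes were. The median log2 fold change of the 7 genes was −0.11, beside −0.01 over all genes.

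**Figure D1:**
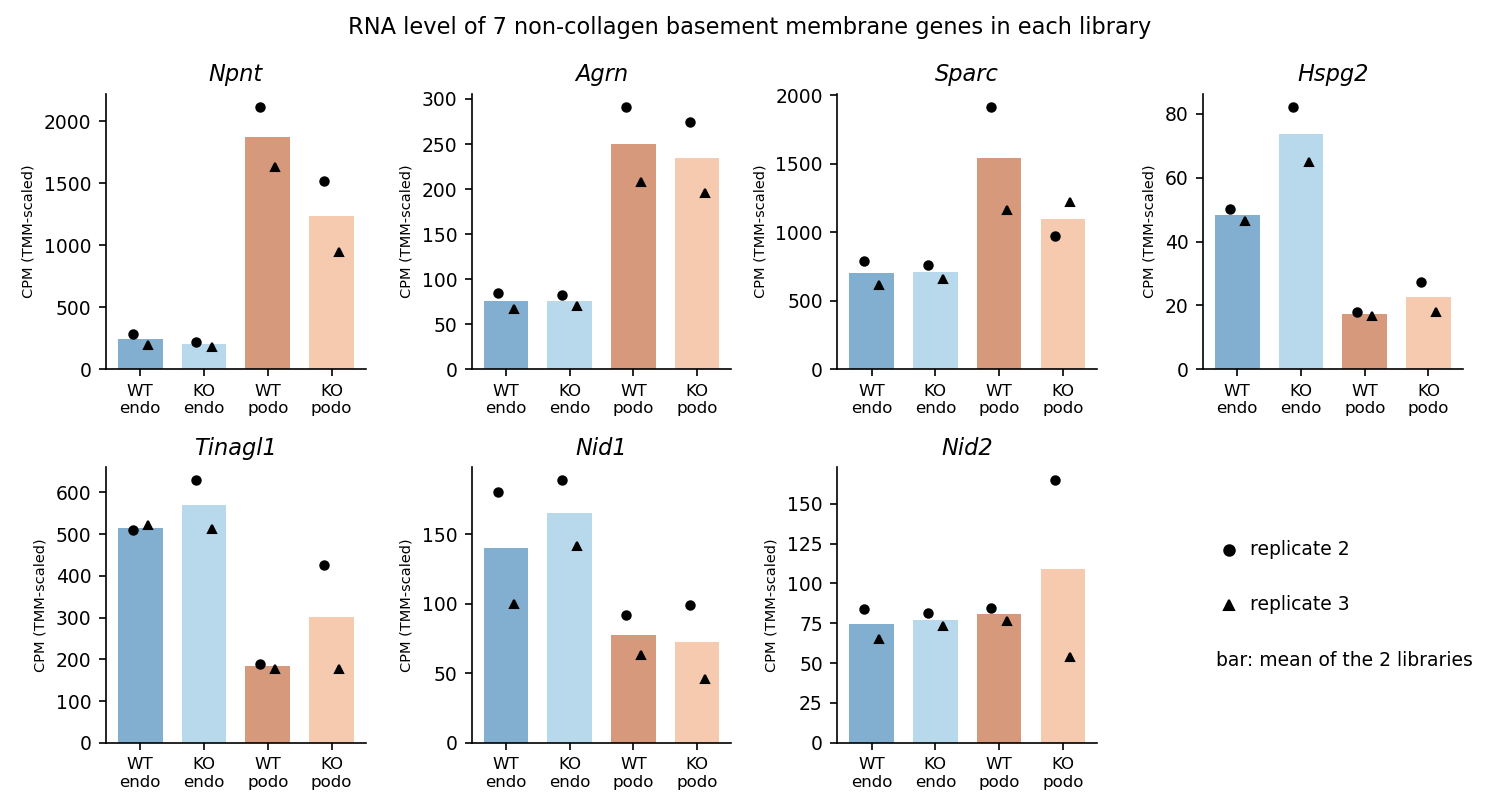
RNA level (vertical axes, CPM on TMM-scaled library sizes, each from 0) of each gene in wild-type (WT) and knockout (KO) endothelium (endo) and podocytes (podo); bars are means of 2 libraries, circles are replicate 2 and triangles replicate 3. Npnt, Agrn and Sparc are higher in the podocyte libraries, Hspg2, Tinagl1 and Nid1 in the endothelial ones, and Nid2 is highest in 1 knockout podocyte library, at 165 CPM.

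Nephronectin showed the widest gap between the cell types. Npnt (Entrez 114249; chromosome 3, 132881745 to 132950291, minus strand, GRCm38) stood at 2117 and 1627 CPM in wild-type podocytes (replicates 2 and 3) and at 284 and 198 CPM in wild-type endothelium. Both podocyte libraries lay far above both endothelial ones. The means were 1872 ± 347 CPM (SD, n = 2) and 241 ± 60.5 CPM (SD, n = 2), a log2 fold change of −2.96 (SE 0.34; endothelium against podocytes, edgeR adjusted p 0.000289). In knockout the podocyte libraries held 1521 and 947 CPM and the endothelial ones 219 and 183 CPM, and the log2 fold change was −2.62 (SE 0.33, edgeR adjusted p 0.000641). Endothelial libraries thus held 12.9% of the podocyte level in wild type and 16.3% in knockout. For the 6 podocyte markers the same share lay between 7.03% (Synpo) and 16.7% (Podxl) in wild type and between 7.33% (Cdkn1c) and 26.0% (Podxl) in knockout, so the Npnt share was above 5 of the 6 markers and below Podxl, which endothelium also expresses, in both genotypes. The part of podocyte RNA in the endothelial level of Npnt was not tested.

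Agrin was also a podocyte-side gene, at a lower level. Agrn (Entrez 11603; chromosome 4, 156165290 to 156197488, minus strand) stood at 292 and 208 CPM in wild-type podocytes and at 84.7 and 66.6 CPM in wild-type endothelium. In knockout it stood at 274 and 196 CPM in podocytes and at 82.4 and 69.9 CPM in endothelium, so that the 4 podocyte libraries lay above the 4 endothelial ones without overlap. The log2 fold changes were −1.72 (SE 0.27, edgeR adjusted p 0.00213) in wild type and −1.63 (SE 0.27, edgeR adjusted p 0.00320) in knockout. Its level in endothelium was 30.3% of that in podocytes in wild type and 32.4% in knockout, above the range of the 6 podocyte markers in both genotypes. Podocyte libraries also held more of the mesangial and mural marker Tagln (log2 fold change −4.24 in wild type) and of the parietal epithelium markers Cldn1 (−4.61) and Pax8 (−1.93), all past the threshold. The 6 mesangial and mural markers summed to 559 and 554 CPM in wild-type podocytes against 185 and 192 CPM in wild-type endothelium, and the 5 parietal markers to 603 and 690 CPM against 192 and 448 CPM. The part of these cell types in the podocyte-side levels of Agrn, Npnt and Sparc was not tested.

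Sparc was abundant in both sorts. Sparc (Entrez 20692; chromosome 11, 55394500 to 55423183, minus strand) stood at 1916 and 1164 CPM in wild-type podocytes and at 789 and 614 CPM in wild-type endothelium, and the wild-type podocyte libraries lay further apart than the lower of them and the higher endothelial library. The log2 fold change was −1.14 (SE 0.31), just past the threshold (edgeR adjusted p 0.0443). In knockout the podocyte libraries held 973 and 1223 CPM and the endothelial ones 758 and 659 CPM, a log2 fold change of −0.63 (95% interval −1.31 to 0.04, edgeR adjusted p 0.250). The Sparc call was lost without replicate 2 of wild-type podocytes, where the log2 fold change was −0.72 (edgeR adjusted p 0.403), and it was lost in 9 of the 16 alternatives run: 4 of 8 other settings (edgeR adjusted p between 0.0552 and 0.113 where lost) and 5 of 8 fits without 1 library. Without replicate 3 of wild-type endothelium, the library high in tubule markers, it was −0.97 (edgeR adjusted p 0.283).

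On the endothelial side, perlecan passed in both genotypes. Hspg2 (Entrez 15530; chromosome 4, 137468769 to 137570630, plus strand) stood at 50.2 and 46.4 CPM in wild-type endothelium and at 17.8 and 16.8 CPM in wild-type podocytes. The knockout values were 82.3 and 65.0 CPM in endothelium and 27.3 and 17.9 CPM in podocytes. It was the one member in which no 2 of the 4 groups overlapped, in the order knockout endothelium, wild-type endothelium, knockout podocytes, wild-type podocytes. The last 2 groups were parted only by 17.92 against 17.82 CPM. The share of all genes with no overlap over all 4 groups was not computed. In the 4 pairs of groups compared, between 31.2% and 55% of all genes did not overlap. The log2 fold changes, endothelium against podocytes, were 1.48 (SE 0.27, edgeR adjusted p 0.00487) in wild type and 1.70 (SE 0.27, edgeR adjusted p 0.00231) in knockout. In podocytes Hspg2 stood at 35.8% of the endothelial level in wild type and 30.7% in knockout, while the 10 endothelial markers stood at between 2.96% (Egfl7) and 16.2% (Erg) in wild type and between 2.73% (Egfl7) and 19.0% (Erg) in knockout. The Hspg2 share was thus above that of every endothelial marker on the list. Without replicate 2 or 3 of wild-type podocytes the wild-type call of Hspg2 was lost (edgeR adjusted p 0.0580 and 0.0542).

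TINAGL1 was the other gene past the threshold on the endothelial side in wild type. Its 2 knockout podocyte libraries differed from each other. Tinagl1 (Entrez 94242; chromosome 4, 130164454 to 130175122, minus strand) stood at 510 and 521 CPM in wild-type endothelium and at 189 and 177 CPM in wild-type podocytes. The log2 fold change was 1.49 (SE 0.36, edgeR adjusted p 0.0253). In knockout the endothelial libraries held 630 and 511 CPM and the podocyte ones 427 and 177 CPM, a log2 fold change of 0.92 (95% interval 0.13 to 1.70, edgeR adjusted p 0.147). Replicate 3 of knockout podocytes was at the wild-type podocyte level, and replicate 2 was far above it. Without replicate 2 of knockout podocytes the knockout log2 fold change was 1.68 (edgeR adjusted p 0.00721), and without replicate 3 of knockout podocytes it was 0.41 (edgeR adjusted p 0.403). Each fit without 1 of the 4 wild-type libraries gave a Tinagl1 value between 1.44 and 1.56 in wild type, with adjusted p-values between 0.0784 and 0.177.

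The nidogens differed from each other in pattern. Nid1 (Entrez 18073; chromosome 13, 13437551 to 13512269, plus strand) stood at 181 and 99.7 CPM in wild-type endothelium against 91.8 and 62.9 CPM in wild-type podocytes, and at 189 and 141 CPM against 99.0 and 45.7 CPM in knockout. Both endothelial libraries lay above both podocyte libraries in each genotype, but within each group replicate 2 was well above replicate 3. Agrn, Nid2, Hspg2 and Npnt were likewise higher in replicate 2 of all 4 groups, where the mitochondrial share and the summed tubule markers were lower. The part of these in the replicate difference was not tested. The log2 fold changes were 0.86 (95% interval −0.01 to 1.73, edgeR adjusted p 0.266) in wild type and 1.19 (95% interval 0.31 to 2.07, edgeR adjusted p 0.0910) in knockout. With the replicate number as a block Nid1 passed in both genotypes (edgeR adjusted p 0.0329 in wild type and 0.00275 in knockout). The labels do not say that these numbers pair libraries. Nid1 was 0.37 in wild type without replicate 2 of wild-type endothelium. In knockout Nid1 passed with DESeq2 (adjusted p 0.0270) and without replicate 2 of knockout podocytes, at 1.85 (edgeR adjusted p 0.0263), and it was 0.73 (edgeR adjusted p 0.292) without replicate 3 of knockout podocytes. Nid2 (Entrez 18074; chromosome 14, 19751265 to 19811787, plus strand) stood at 83.9 and 65.2 CPM in wild-type endothelium, 84.6 and 76.4 CPM in wild-type podocytes, 81.6 and 73.1 CPM in knockout endothelium and 165 and 53.5 CPM in knockout podocytes. Apart from the knockout podocytes, whose 2 libraries held the highest and the lowest Nid2 level of all 8, these values covered a narrow range. The log2 fold changes were −0.11 (95% interval −1.02 to 0.79, edgeR adjusted p 0.935) in wild type and −0.50 (95% interval −1.40 to 0.41, edgeR adjusted p 0.523) in knockout. Without replicate 3 of knockout podocytes Nid2 passed in knockout, at −1.10 (edgeR adjusted p 0.0236), and without replicate 2 it was 0.52 (edgeR adjusted p 0.405). In GENCODE M21 the antisense gene Gm48682 overlaps Nid1 over 8063 bases. Rtraf, on the other strand, overlaps Nid2 over 437 bases. Small RNA genes overlap Hspg2 (Mir7018, 85 bases) and Npnt (Gm23196, 107 bases). These overlaps are of whole gene spans with introns, and exons were not compared. Whether counting used strand is not given in the sources used here, so what these neighbours add to the counts, if anything, is not known.

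**Figure D2:**
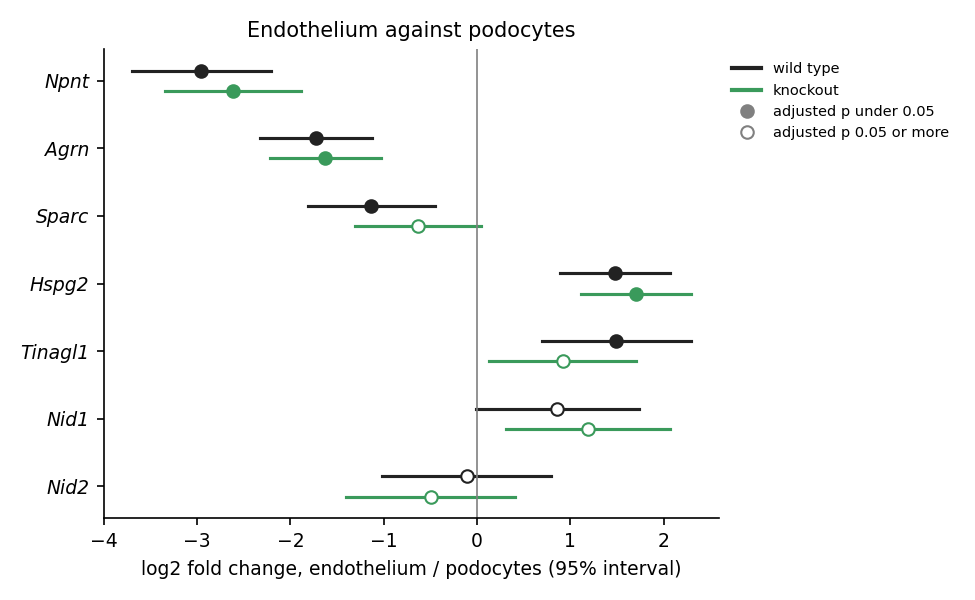
Log2 fold change of endothelium against podocytes (horizontal axis, positive where endothelium is higher) for each gene in wild type (black) and knockout (green); lines are 95% intervals from the edgeR fit, and filled points have an adjusted p under 0.05. Npnt and Agrn lie below 0 and Hspg2 above 0 in both genotypes, and Sparc and Tinagl1 have filled points in wild type only.

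In knockout, 3 of the 7 genes differed between the cell types, Npnt, Agrn and Hspg2, where 10.4% of all genes did (4.28% higher in endothelium and 6.09% higher in podocytes). The sorts again did not overlap in the same 6 genes, where 55% of all genes did not, and 5 of the 7 had an unadjusted p under 0.05, where 22.9% of all genes did. The knockout libraries share no sample with the wild-type ones, but both comparisons came from 1 fit of all 8 libraries. Each of the 7 genes had the same sign in both genotypes, and the share of all genes that did was not computed. For Nid2 the sign turned in 1 fit without 1 library in each genotype, to 0.057 in wild type and 0.52 in knockout. That Sparc and Tinagl1 passed in wild type alone does not show a difference between genotypes. The genotype effect in endothelium minus that in podocytes, which tests this directly, was 0.50 (95% interval −0.45 to 1.45) for Sparc and −0.58 (95% interval −1.68 to 0.53) for Tinagl1, and the edgeR adjusted p of every member was 1 when rounded. In that test 0 of the 7 passed, as did 0 of all 16477 genes (0.0%) by edgeR and by DESeq2. At an unadjusted p under 0.05 there were 0 of the 7, where 2.6% of all genes (428) passed.

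The promoters of the 4 genes with the clearest sides are shown so that the sequence before each start can be read beside its level: Npnt and Agrn from the podocyte side, Hspg2 and Tinagl1 from the endothelial side. Each line gives 120 bases from RefSeq (GRCm38.p6), 5′ to 3′ on the gene's strand, that lie just before the RefSeq start (34 bases before it for Hspg2) and outside every annotated exon. For genes with 2 starts in the table the one nearest the 5′ end of the gene was taken. Capitals mark the GC box GGGCGG on either strand, the core bound by Sp-family factors.
Npnt, chr3:132950292-132950411, minus strand: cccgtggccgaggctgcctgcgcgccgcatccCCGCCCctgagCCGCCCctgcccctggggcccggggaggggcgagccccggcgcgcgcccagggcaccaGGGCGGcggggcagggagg
Agrn, chr4:156197489-156197608, minus strand: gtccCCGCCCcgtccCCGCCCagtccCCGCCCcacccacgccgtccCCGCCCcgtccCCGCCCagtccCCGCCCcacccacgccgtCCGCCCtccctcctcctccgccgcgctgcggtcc
Hspg2, chr4:137468649-137468768, plus strand: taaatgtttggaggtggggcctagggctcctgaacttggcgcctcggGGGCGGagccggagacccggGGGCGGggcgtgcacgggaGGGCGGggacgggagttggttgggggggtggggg
Tinagl1, chr4:130175123-130175242, minus strand: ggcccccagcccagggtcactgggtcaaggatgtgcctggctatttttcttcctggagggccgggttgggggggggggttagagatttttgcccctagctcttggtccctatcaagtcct
The GC box occurred 3 times before Npnt, 7 times before Agrn, 3 times before Hspg2 and 0 times before Tinagl1, where 26.5% of 32851 promoter windows of the same length in the RefSeq table held at least 1. GC content was 85.8% for Npnt, 84.2% for Agrn, 73.3% for Hspg2 and 60.0% for Tinagl1. Windows with the GC box thus came from genes of both sides. The letters TATAAA and CCGGAA (the ETS core with its flank), on either strand, occurred in none of the 4 windows and in 6.34% and 8.07% of all windows. The window of Nid1, which is not printed, held 1 GC box and 1 CCGGAA. A match is a description of these letters, not of a bound site.

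Levels can be set side by side between genes only per length, so CPM was divided by the length of the longest annotated transcript in kilobases. In wild-type podocytes Sparc stood at 670 ± 231 CPM per kb (SD, n = 2) and Npnt at 405 ± 75.1 CPM per kb (SD, n = 2), and they held 54.8% and 33.2% of the summed level of the 7 genes. Tinagl1 followed at 87.9 ± 4.22 CPM per kb (SD, n = 2). Agrn stood at 29.0 ± 6.83, Nid2 at 16.5 ± 1.19, Nid1 at 12.7 ± 3.35 and Hspg2 at 1.22 ± 0.05 CPM per kb (SD, n = 2). No neighbours in this order overlapped between libraries, and the closest were Nid2 at 17.4 and 15.7 and Nid1 at 15.1 and 10.3 CPM per kb.

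In wild-type endothelium the order was different. Sparc stood at 305 ± 53.8 CPM per kb (SD, n = 2) and Tinagl1 at 247 ± 3.86 CPM per kb (SD, n = 2), with 46.5% and 37.8% of the summed level. Their libraries did not overlap, at 343 and 267 against 245 and 250.1 CPM per kb, but the lower Sparc library was close to both Tinagl1 libraries. Npnt followed at 52.2 ± 13.1, then Nid1 at 23.0 ± 9.42 and Nid2 at 15.3 ± 2.71 CPM per kb (SD, n = 2), and the last pair overlapped. Agrn stood at 8.78 ± 1.48 and Hspg2 at 3.40 ± 0.19 CPM per kb (SD, n = 2). Sparc was above 98.8% and Hspg2 above 47.6% of the genes with a known length in wild-type endothelium, and Npnt was above 99.2% of them in wild-type podocytes.

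**Figure D3:**
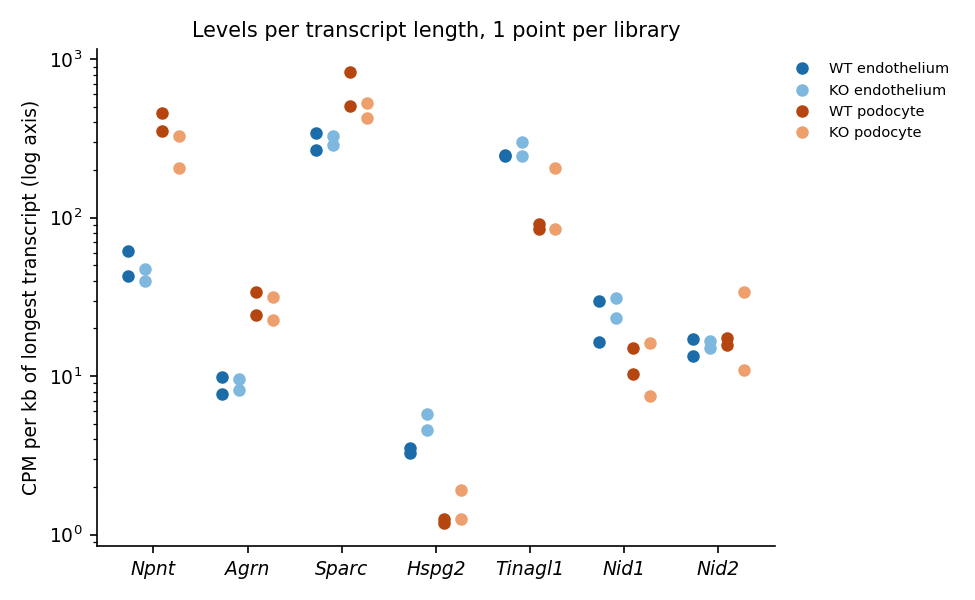
Level of each gene per transcript length (vertical axis, CPM per kb, log scale) in each library, coloured by group, with wild type (WT) in the darker and knockout (KO) in the lighter shade. Sparc is the highest member in the mean of every group and Hspg2 the lowest, between 1.22 CPM per kb in wild-type podocytes and 5.19 CPM per kb in knockout endothelium.

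The same 2 genes ranked first in each group of a cell type. In knockout, Sparc stood at 308 ± 30.6 and Tinagl1 at 274 CPM per kb (libraries at 302 and 245) in endothelium, and Sparc at 478 ± 76.9 and Npnt at 267 ± 87.8 CPM per kb (SD, n = 2) in podocytes. The level of the 7 genes summed to 709 and 601 CPM per kb in wild-type endothelium, 742 and 622 in knockout endothelium, 1450 and 994 in wild-type podocytes and 1041 and 865 in knockout podocytes. All podocyte sums lay above all endothelial sums. The ratio of Nid1 to Nid2 per length was 1.73 and 1.22 in wild-type endothelium, 1.85 and 1.55 in knockout endothelium, 0.868 and 0.659 in wild-type podocytes and 0.481 and 0.682 in knockout podocytes. Endothelial and podocyte libraries did not overlap in that ratio, in either genotype. With the median transcript length in place of the longest, levels of Sparc, Tinagl1 and Nid1 were over 1.5 times higher, with Nid1 at 36.9 CPM per kb in wild-type endothelium, Sparc at 1214 CPM per kb in wild-type podocytes and Tinagl1 at 469 CPM per kb in wild-type endothelium, and Sparc was still first in both. That length also turned the order of the nidogens in wild-type podocytes, with Nid1 at 20.3 and Nid2 at 19.9 CPM per kb.

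Loss of Emcn left each of the 7 genes short of the threshold in both cell types. In endothelium 0 of 7 passed the edgeR test, where 0.00607% of genes did (1 gene, Emcn), and 1 of the 7, Hspg2, had an unadjusted p under 0.05, where 5.49% of genes did. In podocytes 0 of 7 passed (0.00607% of genes, again Emcn) and 0 of 7 had an unadjusted p under 0.05, where 4.43% did. DESeq2 also called 0 of the 7 in each. The median log2 fold change of the 7 was 0.05 in endothelium and −0.09 in podocytes, beside 0.01 and 0.02 over all genes.

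**Figure D4:**
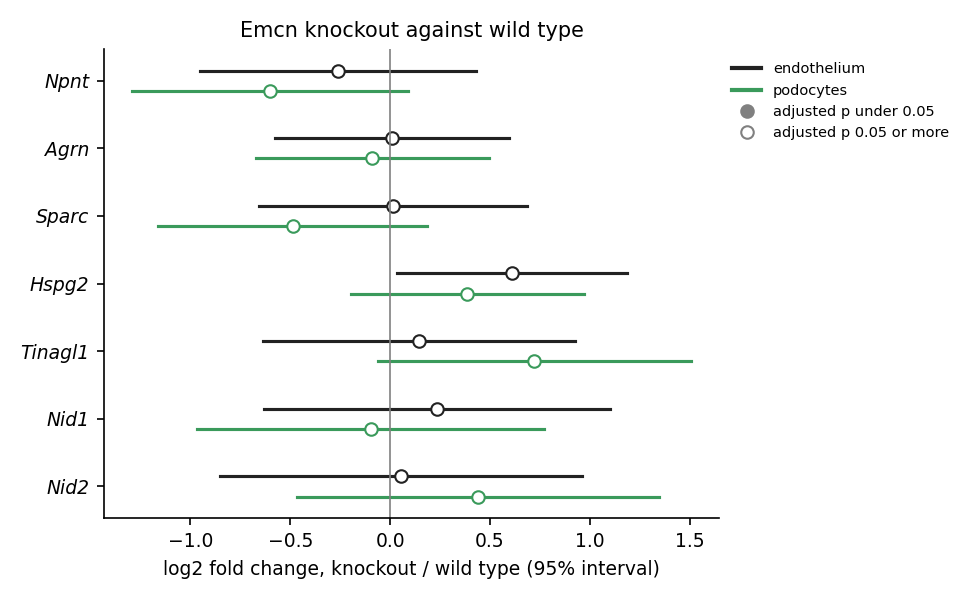
Log2 fold change of knockout against wild type (horizontal axis, positive where knockout is higher) for each gene in endothelium (black) and podocytes (green); lines are 95% intervals from the edgeR fit, and open points have an adjusted p of 0.05 or more. All points are open, and the interval of Hspg2 in endothelium, 0.03 to 1.18, is the one that leaves out 0.

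Hspg2 had the smallest genotype p of the 7 genes in endothelium. Its knockout libraries lay above its wild-type libraries in endothelium, at 82.3 and 65.0 against 50.2 and 46.4 CPM, and in podocytes, at 27.3 and 17.9 against 17.8 and 16.8 CPM, where the gap was narrow. In endothelium 44.5% of all genes did not overlap between genotypes, and in podocytes 31.2% did not. The log2 fold changes were 0.61 (SE 0.26; unadjusted p 0.0400, edgeR adjusted p 0.716) in endothelium and 0.39 (SE 0.26, edgeR adjusted p 0.978) in podocytes. Averaged over both cell types the value was 0.50 (95% interval 0.09 to 0.91; unadjusted p 0.0220, edgeR adjusted p 0.558), so it did not hold up after adjustment over all genes. In that average 0 of the 7 passed (0.00607% of genes) and Hspg2 alone of them had an unadjusted p under 0.05, where 8.59% of genes did. Without replicate 3 of wild-type endothelium the endothelial value was 0.54 (edgeR adjusted p 1), without replicate 2 of knockout podocytes the podocyte value was 0.05, and scaling by library size only, which moved the median of all genes to 0.33 in endothelium, gave 0.94 there. The mesangial and mural markers had a median log2 fold change of 0.81 in endothelium and 0.37 in podocytes, with 4 of 6 positive and 0 past the threshold in each, and the smallest p was that of Rgs5 (1.67 in endothelium and 1.62 in podocytes). The 7 tubule markers had a median of −0.98 in endothelium and 0.46 in podocytes, with 0 past the threshold. The part of these cell types in the Hspg2 values was not tested.

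Npnt was the other gene whose podocyte libraries did not overlap between genotypes, with both knockout libraries (1521 and 947 CPM) below both wild-type ones (2117 and 1627 CPM). The log2 fold change was −0.60 (95% interval −1.29 to 0.09, edgeR adjusted p 0.978), and −0.99 without replicate 2 or −0.30 without replicate 3 of knockout podocytes. In endothelium it was −0.26 (95% interval −0.95 to 0.43, edgeR adjusted p 0.799). The 6 podocyte markers summed to 17764 and 11420 CPM in wild-type and to 8063 and 10635 CPM in knockout podocytes, so that they too were lower in both knockout libraries, and all 6 had a negative log2 fold change with a median of −0.59 and 0 past the threshold. The part of the podocyte share of each library in the Npnt value was not tested.

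**Figure D5:**
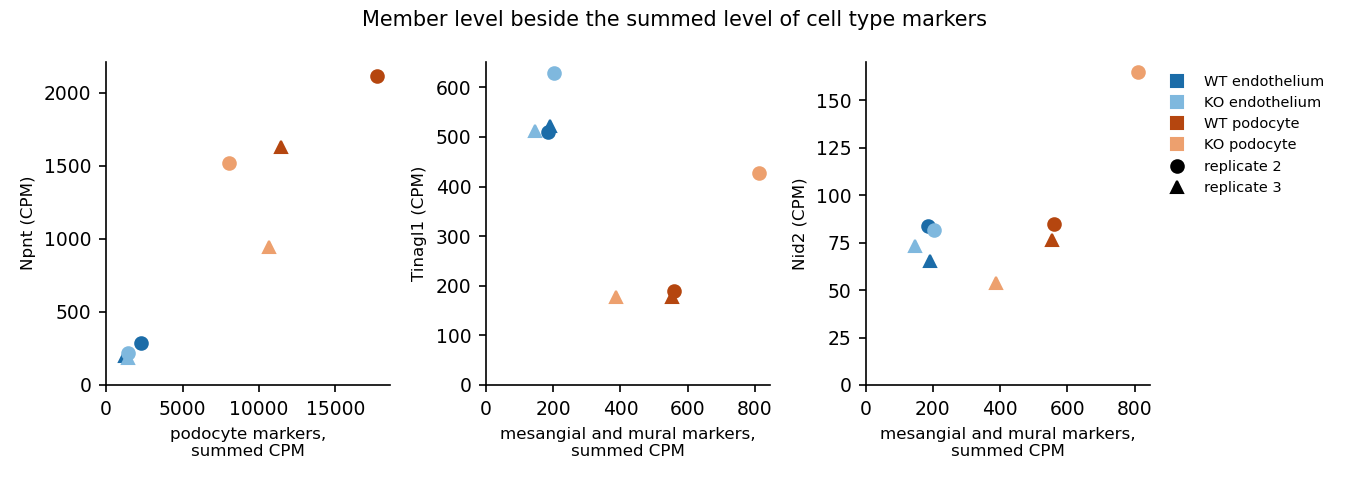
Level of Npnt, Tinagl1 and Nid2 (vertical axes, CPM) beside the summed CPM of the podocyte markers or of the mesangial and mural markers (horizontal axes) in each of the 8 libraries; circles are replicate 2 and triangles replicate 3. Endothelial libraries are low in both Npnt and podocyte markers, and replicate 2 of knockout podocytes, at 811 CPM of mesangial and mural markers, is the highest podocyte library for Tinagl1 and Nid2.

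Tinagl1 and Nid2 had wide genotype values in podocytes that came from 1 library. Replicate 2 of knockout podocytes held 427 CPM of Tinagl1 and 165 CPM of Nid2, against 177 and 53.5 CPM in replicate 3. The log2 fold changes in podocytes were 0.72 (95% interval −0.06 to 1.51, edgeR adjusted p 0.978) for Tinagl1 and 0.44 (95% interval −0.47 to 1.35, edgeR adjusted p 0.978) for Nid2. Without that library they were −0.05 and −0.59, so both signs turned. The same library had the highest summed level of the mesangial and mural markers (6 of 10 genes), at 811 CPM against between 388 and 559 CPM in the other 3 podocyte libraries and between 147 and 203 CPM in endothelium, and the highest of the 5 parietal epithelium markers, at 1193 CPM against between 603 and 690 CPM in the other podocyte libraries. No gene of either list was at 0 in any library. Replicate 2 of knockout podocytes was also the highest of the 8 libraries for the tubule markers Miox (829 CPM), Lrp2 (183 CPM), Cubn (46.35 CPM) and Cdh16 (1449 CPM). It was the lowest for the tubule marker Umod (1225 CPM). The part of these cell types in the Tinagl1 and Nid2 values was not tested.

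Of the other 3 genes, Agrn and Sparc had genotype values near 0 in endothelium, and Nid1 had 0.24. Their intervals still allowed changes of some size. Agrn had 0.01 (95% interval −0.58 to 0.60) in endothelium and −0.09 (95% interval −0.67 to 0.49) in podocytes. Nid1 had 0.24 (95% interval −0.63 to 1.10) and −0.10 (95% interval −0.97 to 0.77). Sparc had 0.01 (95% interval −0.66 to 0.69) in endothelium and −0.49 (95% interval −1.16 to 0.18) in podocytes, where the wild-type libraries at 1916 and 1164 CPM enclosed the knockout replicate 3. The Sparc value in podocytes was −0.07 without replicate 2 and −0.81 without replicate 3 of wild-type podocytes.

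Other matrix genes, from a list of 27 of which 25 were tested, also lay on both sides. In wild type 3 were higher in endothelium and 4 in podocytes, where 8.99% of all genes passed, and the median log2 fold change was −0.20. Fibulin 2 (Fbln2), a matrix protein that binds nidogen and perlecan, had a log2 fold change of 4.27 towards endothelium (edgeR adjusted p 9.1e-05), and fibulin 5 (Fbln5), an elastic fibre protein, one of 3.16. Sparcl1, a relative of Sparc, had 2.28 (edgeR adjusted p 0.0294), in the other direction from Sparc. On the podocyte side were the fibulin family member Efemp1 (−2.44), thrombospondin 1 (Thbs1, −2.36), the transmembrane protein Crim1 (−1.45) and Frem1 (edgeR adjusted p 0.0322), a protein of the Fraser complex in basement membranes. In knockout 2 were higher in endothelium, Fbln2 and Fbln5, and 4 in podocytes, Efemp1, Thbs1, Crim1 and Tinag, the relative of Tinagl1, where 10.4% of all genes passed. The Tinag value was −2.46 (SE 0.65, edgeR adjusted p 0.0358) in knockout and −1.06 (edgeR adjusted p 0.411) in wild type, on the opposite side from Tinagl1 in both genotypes. In knockout all 7 tubule markers were also lower in endothelium than in podocytes (median log2 fold change −1.31, with Miox past the threshold), as were all 5 parietal markers (median −1.59, with Cldn1, Pax8, Cdh6 and Krt8 past it). Laminins could be read for 2 of 11 genes, of which 0 passed in wild type and Lamb1 was higher in podocytes in knockout, by a log2 fold change of −1.31 (edgeR adjusted p 0.0241). The part of tubule and parietal cells in the knockout values of Tinag and Lamb1 was not tested. None of the 13 listed collagens was on a complete line, and they were not analysed here.

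Receptors of these proteins were found on both sides. Of 16 tested, 11 passed in wild type, 5 higher in endothelium and 6 higher in podocytes, beside 8.99% of all genes, with a median log2 fold change of −0.10. On the podocyte side were integrin alpha3 (Itga3, −2.08), which pairs with beta1 as the podocyte's laminin receptor, integrin alphav (Itgav, −2.28), dystroglycan (Dag1, −2.91), a receptor of agrin, perlecan and laminin, and the laminin receptor Bcam (−1.61). Stabilin 1 (Stab1), a scavenger receptor that takes up SPARC, was higher in endothelium by 3.68, as were integrins beta3 (Itgb3, 3.21), beta4 (Itgb4, 2.15) and alpha6 (Itga6, 1.26). In knockout 10 of the 16 passed, 5 in each direction, beside 10.4% of all genes. Integrin alpha8 (Itga8), the nephronectin receptor subunit, and the agrin receptor Lrp4, which were singled out for their roles after their values were seen, did not pass, at −0.13 (95% interval −1.38 to 1.12) and −0.07 (95% interval −1.17 to 1.03) in wild type. Of the 17 tested genes of assembly, cross-linking and cleavage, 0 were higher in endothelium and 5 were higher in podocytes in wild type, beside 4.26% and 4.73% of all genes, among them the lysyl oxidase relatives Loxl1 (−4.10) and Loxl2 (−3.72), the protease Htra1 (−2.83) and cathepsin L (Ctsl, −1.69), and their median was −0.69. In knockout 5 were higher in podocytes and 0 in endothelium, beside 6.09% and 4.28% of all genes. For knockout against wild type 0 genes of these lists passed in either cell type.

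Genes whose pattern over the 8 libraries was most like that of each member were found by the root mean square difference of log2 CPM, after each gene was centred on its own mean, among 9958 genes with a mean of at least 5 CPM. For Npnt they were Dag1 (0.164 log2 units), Mme (0.166) and Sh3bgrl2 (0.185). For Agrn they were Ptk7 (0.154), Tns2 (0.165) and Notch2 (0.169), and for Sparc they were Anxa1 (0.122), Dnase1l1 (0.131) and Dpysl2 (0.132). Hspg2 was nearest to Cmtm3 (0.186), Mcam (0.190) and Tspan14 (0.205), and Tinagl1 to Hyal1 (0.153), Gbp6 (0.184) and Cpt1c (0.191). Nid1 was nearest to Casp12 (0.144), Pla2r1 (0.161) and Atl1 (0.163), and Nid2 to Med14 (0.192), Hykk (0.197) and Lmnb1 (0.199). No member was among the 3 nearest of another.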

How the data were processed

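Raw counts for 8 libraries of sorted mouse kidney cells were deposited by the authors in 1 table, keyed by Entrez gene. Polyadenylated RNA was sequenced from Illumina TruSeq libraries, per the labels' protocols, and each column was named after 1 alignment file, per the file headers. The build mm10 and DESeq2 are named in the submitters' processing notes, and the aligner, counter, annotation and use of strand are not given in the sources used here. Of 22533 gene lines, 5207 (23.11%) held fewer than 8 counts, because of commas in the gene description, and were not used. For that reason alone 3 of the deposited columns could not be listed as counts throughout, and on the 17326 complete lines every value was a whole number.

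Counts were analysed with edgeR 4.0.16 in R 4.3.3: filterByExpr (16477 genes kept), TMM scaling, 1 mean per group over all 8 libraries, and the quasi-likelihood F test with Benjamini-Hochberg adjustment over all genes at 0.05. SEs were derived from the fold change and its F value, and the 95% intervals use the moderated degrees of freedom. CPM used TMM-scaled library sizes, and log2 CPM a prior count of 2. Lengths and positions came from GENCODE M21 (GRCm38). An exact permutation test of 2 against 2 libraries cannot give a p below 0.333, so none was used. The edgeR step was tested on simulated counts, for knockout against wild type in endothelium only. Alternatives were DESeq2 1.42.0, other scalings, filters and thresholds, the replicate block, fewer libraries and another transcript length.

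The 7 genes and all lists were chosen with earlier results of these data known. Listed genes are named where they passed, up to 4 per direction, list and comparison, by smallest p, and each member is given with its 3 nearest genes by pattern. Some lists were read only in part: 6 of 10 podocyte, 6 of 10 mesangial and mural, 7 of 10 tubule, 2 of 6 fibroblast, 4 of 8 immune and 1 of 6 erythroid markers were on complete lines. Beside the sums in the text, the fibroblast markers summed to between 5.64 and 33.3 CPM, the immune markers to between 9.96 and 46.0 CPM and the erythroid marker to between 0.0648 and 1.41 CPM per library. The lowest count of a member was 231 (Hspg2 in replicate 3 of wild-type podocytes).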

Additional observations from a re-analysis of the deposited data

How the results depend on the processing

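With 2 libraries per group, the fits without 1 library assume that the lone library of its group varies like the others. Endothelium against podocytes gave between 769 and 1672 genes in wild type and between 960 and 1809 in knockout over the 8 such fits, with between 2 and 5 members in wild type and between 3 and 5 in knockout. Npnt and Agrn passed in all of them and in every other alternative run for both genotypes, and Hspg2 in all but the wild-type fits without replicate 2 or 3 of wild-type podocytes (edgeR adjusted p 0.0580 and 0.0542). Without replicate 3 of wild-type endothelium, the wild-type values were −2.72 for Npnt (edgeR adjusted p 0.00527), −1.56 for Agrn (0.0314), 1.53 for Hspg2 (0.0225), 1.48 for Tinagl1 (0.102) and −0.97 for Sparc (0.283). For knockout against wild type, between 0 and 1 genes passed in each cell type without 1 library. DESeq2 called 10 genes in endothelium, 12 in podocytes and 13 on average, and 0 passed in endothelium or in podocytes by library size only or with a mean of at least 5 CPM, nor among only the 4 podocyte libraries. None of these calls was a member. The share of Sparc among the 7 genes in wild-type podocytes was 60.3% with the median transcript length.

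The labels do not say that a replicate number marks a shared animal or day. Deviations of same-numbered libraries correlated across genes between −0.129 and 0.188, above 0.1 in 3 of 6 pairs of groups, which does not settle whether the numbers pair the libraries. The replicate block gave 1831 genes in wild type (6 members, Nid1 added) and 2241 in knockout (4 members, Nid1 added), 1 gene in each cell type by genotype and 2 on average, and it changed no other member's call. With it Nid1 was 0.82 (edgeR adjusted p 0.0329) in wild type and 1.28 (edgeR adjusted p 0.00275) in knockout.

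Values near 0 changed sign. In endothelium by genotype, Agrn was −0.0404 with DESeq2 or its size factors and −0.00046 without a filter, Sparc was −0.035 in the first 2, and Npnt was 0.046 by library size only. By library size only Agrn was 0.030 and Nid1 0.026 in podocytes, and Agrn was 0.18 on average, or 0.071 with at least 5 CPM. DESeq2's size factors moved the median of all genes in endothelium by genotype to −0.05. Library size only moved it to 0.33 in endothelium, 0.13 in podocytes and 0.23 on average, and to 0.27 in knockout endothelium against podocytes.

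Without 1 library, Nid2 ran from −0.30 to 0.057 between cell types in wild type and from −1.10 to 0.52 in knockout. By genotype in endothelium the ranges were −0.16 to 0.18 for Agrn, −0.14 to 0.72 for Nid1, −0.12 to 0.24 for Nid2, −0.50 to 0.011 for Npnt, −0.019 to 0.28 for Tinagl1 and −0.16 to 0.20 for Sparc. In podocytes they were −0.36 to 0.20 for Agrn, −0.77 to 0.35 for Nid1, −0.59 to 1.03 for Nid2 and −0.051 to 1.22 for Tinagl1. On average they were −0.18 to 0.11 for Agrn, −0.27 to 0.31 for Nid1 and −0.27 to 0.54 for Nid2. The difference between cell types ran from −0.17 to 0.36 for Agrn, −0.13 to 0.99 for Nid1, −0.99 to 0.64 for Nid2, −0.055 to 0.55 for Hspg2 and −1.08 to 0.19 for Tinagl1. It kept its sign for Sparc, from 0.099 to 0.81, and for Npnt, from 0.032 to 0.72. The cause was not tested.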
